A study of Homo sapiens with 36 samples.

Results

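The genes described here encode the proteins of the large (60S) subunit of the cytosolic ribosome. They were chosen by name, as 46 RPL and RPLP genes with protein-coding symbols in the GENCODE annotation, among 58219 genes listed in the RNA tables, and all 46 were present in each of the 6 deposited tables. The choice used names and not values, but it was made with earlier results of these data known. Each was followed in total RNA, in ribosome footprints (the short RNA fragments that translating ribosomes shield from nuclease) and in translational efficiency, which is the change in footprints relative to the change in RNA.

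The large subunit joins amino acids at its catalytic centre, passes the growing chain out through an exit tunnel, and recruits elongation factors through a flexible stalk built from RPLP0, RPLP1 and RPLP2. Most messenger RNAs for its proteins begin with a 5′ terminal oligopyrimidine (TOP) tract, a C followed by an uninterrupted run of C and T, through which their translation is controlled together with cell growth. RPL5 and RPL11 enter the ribosome with 5S ribosomal RNA, and when ribosome assembly is blocked the same particle can bind the ubiquitin ligase MDM2. Actinomycin D (actD) binds DNA and at low dose chiefly blocks the synthesis of ribosomal RNA.

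The cells were WiT49, a cell line from an anaplastic Wilms tumor, a childhood kidney cancer. They were grown with 2 nM actD, or with dimethyl sulfoxide (DMSO) as the vehicle, during 6 h, 72 h or 2 weeks. The 2-week schedule held 2 cycles of 7 days, in which 3 days with actD or DMSO were followed by 4 days in plain medium. Every combination of assay, time and treatment had 3 libraries, 36 in all, and every group came from this 1 line with no genetic change named. The labels call the libraries replicates without naming separate cultures, so the p-values measure the spread between these libraries, which may be technical. In RNA at 2 weeks each title contradicts the name of its library on the treatment. Groups at that time follow the library names, written "named actd" and "named dmso", and the direction of any difference between them is uncertain.

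Of 14 marker genes of Wilms tumor and kidney progenitors, 7 had a median above 1 CPM (the count relative to the edgeR-scaled size of its library) in RNA, among them IGF2 at 1507 CPM, LIN28B at 237 CPM and WT1 at 10.5 CPM. SIX2, CITED1, PAX2, PAX8, EYA1, SALL1 and H19 were below 1 CPM. Of 9 markers of blood, endothelial, liver, glial and red cells, CD68 alone was above 1 CPM, with a median of 1.10 CPM. Total counts ran from 40221994 to 69240041 per RNA library and from 152556 to 1281039 per footprint library. Of these, protein-coding genes took 52.9% to 76.3% in RNA and 2.12% to 40.4% in footprints.

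The start of the transcript is shown for members on which the results turn, because the TOP tract lies there. Each window holds 20 bases before and 20 bases from an annotated start, read 5′ to 3′ on the strand of the gene from RefSeq on GRCh38.p14. Capitals mark the longest run of C and T that opens with C within 5 bases of that start and is at least 5 bases long. The first 5 belong to the members called higher in footprints at 72 h, the next 2 to the members with the lowest log2 fold changes in RNA at 72 h. RPL27 is shown as a member in which the search found no run opening there.
RPL28, chr19:55385912-55385951, plus strand: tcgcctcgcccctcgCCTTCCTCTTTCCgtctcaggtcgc
RPL35, chr9:124861938-124861977, minus strand: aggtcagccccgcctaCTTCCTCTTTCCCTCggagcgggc
RPL34, chr4:108620556-108620595, plus strand: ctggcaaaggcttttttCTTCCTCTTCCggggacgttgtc
RPL37A, chr2:216498824-216498863, plus strand: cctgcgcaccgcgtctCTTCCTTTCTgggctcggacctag
RPL13, chr16:89560662-89560701, plus strand: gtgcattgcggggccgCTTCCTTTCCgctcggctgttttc
RPL22L1, chr3:170870176-170870215, minus strand: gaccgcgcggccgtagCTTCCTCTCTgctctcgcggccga
RPL3, chr22:39319604-39319643, minus strand: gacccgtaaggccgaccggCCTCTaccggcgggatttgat
RPL27, chr17:42998399-42998438, plus strand: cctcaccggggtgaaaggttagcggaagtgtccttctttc

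A run of this kind was found at 1 or more annotated starts in 34 of the 39 members with an entry (87.2%), against 25.2% of 27305 genes with an entry. The share was 80.8% among small-subunit ribosomal proteins and 19.05% among the large-subunit proteins of the mitochondrial ribosome. Among the windows shown, the run is 15 bases long in RPL35, 13 in RPL28, 11 in RPL34 and 5 in RPL3. It is 10 bases long in RPL37A, RPL13 and RPL22L1. Whether the length of the run goes with any difference under actD was not tested. The members with no run opening within 5 bases of an annotated start were RPL6, RPL9, RPL15, RPL17 and RPL27, and runs elsewhere in the window were not counted. RPL5, RPL7, RPL8, RPL23, RPL23A, RPL30 and RPL37 had no entry.

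The 46 members together took a smaller share of the footprints than of the RNA in every library. In RNA they held 3.39% to 6.18% of the protein-coding counts of a library, and the highest of these values came from replicate 3 of DMSO at 72 h. In footprints they held 0.608% to 2.73%. At 72 h the share of footprints was 1.56%, 1.79% and 2.73% in the actD libraries and 1.12%, 1.62% and 0.608% in the DMSO libraries. The lowest actD library thus lay below the highest DMSO library, although the mean of the actD libraries was higher.

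**Figure D1:**
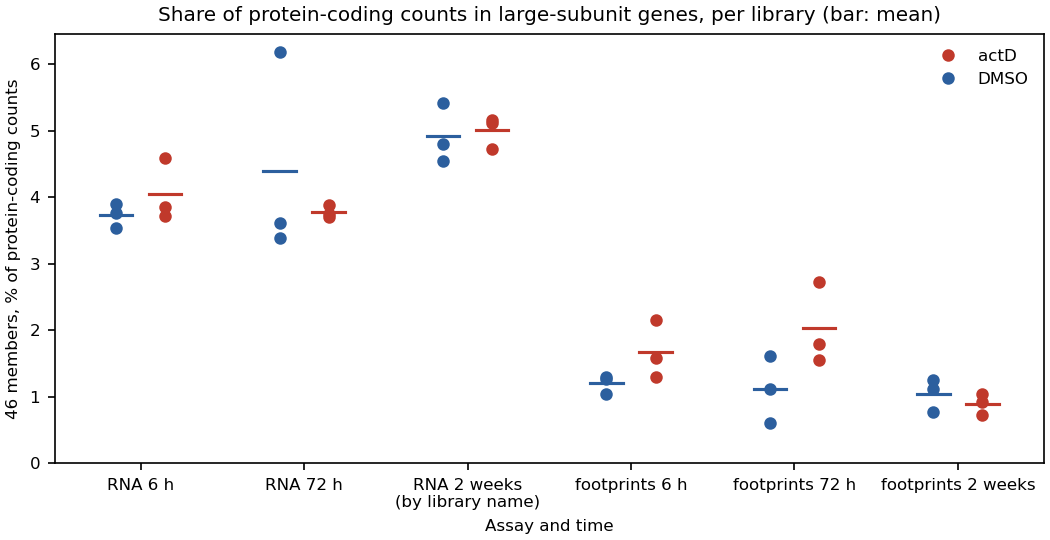
Share of protein-coding counts held by the 46 large-subunit genes, in percent, for each library (points) and the mean of each group (bars), by assay and time. In footprints at 72 h the actD libraries lie between 1.56% and 2.73% and the DMSO libraries between 0.608% and 1.62%, and 1 DMSO library of RNA at 72 h stands at 6.18%.

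Some libraries stood apart over most members. In RNA at 72 h, replicate 3 of DMSO was above both other DMSO libraries for 43 of 46 members, with a median log2 ratio of 0.81 to their mean. In RNA at 6 h, replicate 3 of actD was above its partners for 43 of 46 members (median log2 ratio 0.42). In RNA at 2 weeks, replicate 3 of the libraries named dmso was above its partners for 44 of 46 members (0.30). In footprints at 72 h, replicate 3 of DMSO had the fewest counts in all of any library of the series (152556), with 26831 in protein-coding genes and 163 over all members. In footprints at 6 h, replicate 3 of actD was above its partners for 31 members (median log2 ratio 0.89), and at 2 weeks replicate 3 of DMSO was above its partners for 29 members (0.89). For RNA and footprints at each time, the counts of higher members are given with and without these libraries. For efficiency and the comparisons between times this is done in part only. All values are shares of a library, so fewer cells and less RNA per cell cannot be told apart.

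After 6 h of actD the RNA of the large-subunit genes was little different from DMSO. The log2 fold change (actD minus DMSO) was above 0 for 41 of 46 members, with a median of 0.13 against 0.02 over all 22669 genes tested and a range from -0.21 to 0.33. The edgeR quasi-likelihood test with Benjamini-Hochberg adjustment called no member at an adjusted p below 0.05, and none had an unadjusted p below 0.05. The same test called 0% of all genes, and 8.21% of all genes had an unadjusted p below 0.05. DESeq2 called no member either. For no member did the actD libraries lie all above or all below the DMSO libraries, which happened for 7.66% and 8.17% of all genes. Without replicate 3 of actD, the library that stood apart, 16 of 46 members were above 0.

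The members at the ends of this range differed from DMSO by about the spread of their libraries. The highest values belonged to RPL15 (log2 fold change 0.33, SE 0.18), to the stalk protein RPLP1 (0.32, SE 0.28) and to RPL22 (0.31, SE 0.20). The lowest belonged to RPL26 (-0.21, SE 0.28), to RPL3 of the catalytic centre (-0.17, SE 0.12) and to RPL10A (-0.06, SE 0.15). Both proteins of the 5S particle were near the median of the members. RPL5 had 1132, 1196 and 1446 CPM under actD and 1179, 1204 and 1048 CPM under DMSO, and RPL11 had 614, 632 and 842 CPM against 650, 644 and 546 CPM. In each gene the highest actD library was the replicate that stood apart.

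At 72 h most members had lower RNA under actD, but no member was called. Protein-coding genes took 54.3%, 57.8% and 62.4% of the counts in these actD libraries and 63.2%, 66.9% and 67.6% in the DMSO libraries, and the part of this in the result was not tested. The log2 fold change was below 0 for 42 of 46 members, with a median of -0.32 against 0.02 over the 21195 genes tested. By the edgeR test 5 members had an unadjusted p below 0.05, all of them lower, or 10.9% of the members, against 7.78% of all genes lower and 13.1% in either direction. The adjusted test called 0.00472% of all genes, which is 1 gene. In 12 members all actD libraries lay below all DMSO libraries, against 10.3% of all genes, and in 1 member, RPL35, they lay above, against 10.5%. The 12 were RPL3, RPL4, RPL5, RPL7A, RPL8, RPL10A, RPL13A, RPL14, RPL22L1, RPL28, RPL30 and RPL38.

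This direction of the members as a whole rested on 1 library. Without replicate 3 of DMSO, 25 of 46 members had a log2 fold change above 0, and the median of the members was 0.05 below that of all genes instead of 0.34 below. In a member whose actD libraries all lay below DMSO, leaving out 1 library cannot change that order, so its persistence is no support. The size of the difference without replicate 3 of DMSO is given below for RPL3, RPL4 and RPL22L1.

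RPL3, which reaches into the catalytic centre, had 248, 257 and 277 CPM under actD and 526, 716 and 833 CPM under DMSO. The groups did not overlap, and the lowest DMSO library was above the highest actD library by a wide margin. Its log2 fold change was -1.41 (SE 0.24) with an edgeR adjusted p of 0.19, and without replicate 3 of DMSO it was -1.26 (adjusted p 0.0995). DESeq2 called 1 member at 72 h in RNA, and a fit over all 18 RNA libraries called 4. RPL4, which narrows the exit tunnel, had 678, 638 and 730 CPM against 1154, 969 and 1993 CPM (log2 fold change -1.01, SE 0.31, adjusted p 0.283, and -0.64 without replicate 3 of DMSO). The groups did not overlap, with replicate 3 of DMSO far above the rest.

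RPL22L1, the paralogue of RPL22, had 27.3, 28.1 and 26.5 CPM under actD and 42.5, 29.5 and 172 CPM under DMSO. The actD libraries were close to each other and just below the second DMSO library, while replicate 3 of DMSO was several times above its partners. Its log2 fold change of -1.57 (SE 0.61, adjusted p 0.345) became -0.40 without that replicate. RPL22 itself had 299, 307 and 289 CPM against 316, 278 and 508 CPM, and its groups overlapped (log2 fold change -0.30, SE 0.26).

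RPL5 had 1032, 889 and 1136 CPM under actD and 1614, 1234 and 2722 CPM under DMSO, so its groups did not overlap (log2 fold change -0.87, SE 0.33, adjusted p 0.34). RPL11, its partner in the 5S particle, had 600, 659 and 630 CPM against 508, 543 and 969 CPM. There the actD libraries lay between the DMSO libraries, and the log2 fold change was -0.10 (SE 0.29). Whether RPL5 and RPL11 differed from each other in their response was not tested. RPL10A had 234, 238 and 282 CPM against 369, 337 and 533 CPM without overlap (log2 fold change -0.71, SE 0.24, adjusted p 0.306).

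Of 4 stalk proteins, 2 were lower and 2 higher. RPLP0, the base of the stalk, had 989, 833 and 875 CPM under actD and 943, 785 and 1170 CPM under DMSO (log2 fold change -0.10, SE 0.23). RPL12, beside that base, had 786, 767 and 820 CPM against 678, 665 and 1588 CPM (-0.31, SE 0.36). The acidic stalk proteins had log2 fold changes of 0.02 (SE 0.21) for RPLP1 and 0.13 (SE 0.24) for RPLP2. RPL35, which lies at the mouth of the exit tunnel, had 371, 377 and 393 CPM against 316, 327 and 363 CPM, and was the 1 member whose actD libraries all lay above DMSO (log2 fold change 0.18, SE 0.18). RPL36 completed the 3 highest, with 0.10 (SE 0.20).

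Of the remaining members given by library, RPL10, which completes the subunit in the cytoplasm, had 377, 339 and 394 CPM under actD and 459, 361 and 1199 CPM under DMSO, with overlap (log2 fold change -0.86, SE 0.44). RPL28 had 170, 168 and 164 CPM against 188, 226 and 178 CPM, without overlap (-0.24, SE 0.18). RPL37A had 688, 635 and 790 CPM against 574, 470 and 1277 CPM, with overlap (-0.14, SE 0.38). The smallest proteins of the subunit, RPL39 and RPL41, also overlapped and had log2 fold changes of -0.26 (SE 0.39) and -0.40 (SE 0.39).

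**Figure D2:**
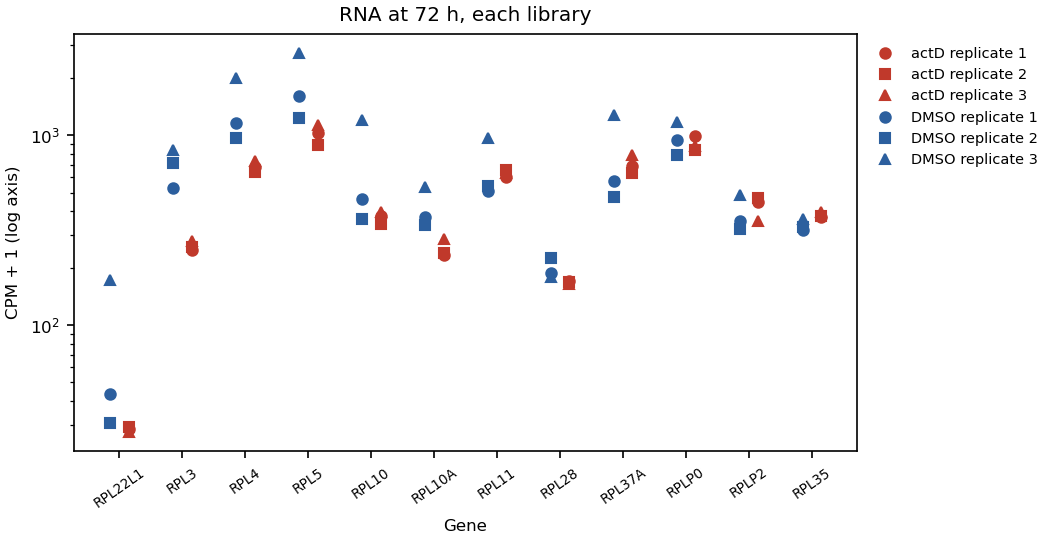
RNA level of 12 large-subunit genes at 72 h in each library, as CPM plus 1 on a log axis, with actD in red, DMSO in blue and the marker showing the replicate number. RPL3, RPL4, RPL5 and RPL10A have all actD libraries below all DMSO libraries, and DMSO replicate 3 stands above its partners in most genes.

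Genes with related roles were set beside the members at 72 h in RNA. Of 33 small-subunit ribosomal proteins, 27 were lower and 1 had an unadjusted p below 0.05 (median -0.29). Of 17 other TOP messenger RNAs, which encode elongation and initiation factors, 15 were lower and 12 had an unadjusted p below 0.05, with a median of -0.69. EEF2, the factor that moves the ribosome along the messenger RNA, had the largest difference there (-1.57, SE 0.34, adjusted p 0.233). Of 37 assembly factors of the large subunit, 27 were lower (median -0.24), and of 49 mitochondrial large-subunit proteins 21 were lower (median 0.05). MDM2, which the 5S particle can bind, had a log2 fold change of 0.28 (SE 0.25). No gene of these lists was called in RNA at 72 h.

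At 2 weeks the RNA of the members differed little between the libraries named actd and those named dmso. The log2 fold change (named actd minus named dmso) was above 0 for 27 of 46 members, with a median of 0.05 against -0.02 over 21137 genes. No member was called by edgeR, as was 0% of all genes, and 2 members had an unadjusted p below 0.05, or 4.35%, against 8.93% of all genes. In 1 member the libraries named actd all lay above the others and in 3 they all lay below, against 7.86% and 7.83% of all genes. DESeq2 called 2 members. When replicate 3 of the libraries named dmso was left out, 39 of 46 members were above 0. With scaling by library totals instead of TMM (edgeR's trimmed mean of log ratios), 5 of 46 were above 0, and the median over all genes moved from -0.02 to -0.18.

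RPL14 had 431, 457 and 488 CPM in the libraries named actd and 227, 242 and 316 CPM in those named dmso. The groups were well apart (log2 fold change 0.81, SE 0.15, edgeR adjusted p 0.295). RPL22L1 had 16.3, 14.6 and 15.6 CPM against 27.9, 26.0 and 30.6 CPM, again well apart (log2 fold change -0.86, SE 0.11, adjusted p 0.108). RPL3 had 858, 908 and 922 CPM against 968, 1033 and 1196 CPM (-0.25, SE 0.13). The members next in order were RPL26 (0.23, SE 0.22), RPL38 (0.22, SE 0.17) and RPL29 (-0.35, SE 0.49). By the titles of these libraries every sign here is the opposite.

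In footprints at 6 h, 18 of the 46 members passed the filter on low counts. The log2 fold change was above 0 for 14 of them, with a median of 0.47 against 0.11 over the 1212 genes tested. With library totals 5 of 18 were above 0, and the median over all genes moved from 0.11 to -0.55. The edgeR test called no member and 0% of all genes, and DESeq2 called no member. RPL31 was the 1 member with an unadjusted p below 0.05, against 3.14% of all genes. It had 41.3, 34.4 and 69.7 CPM under actD and 10.2, 23.4 and 28.9 CPM under DMSO, without overlap (log2 fold change 1.25, SE 0.52, adjusted p 0.889). Among the 18 members that passed the filter, RPL31 and RPL7A were the 2 whose actD libraries all lay above DMSO (3.71% of all genes), and none lay below (5.69%). Leaving out replicate 3 of actD, 12 of 19 members tested were above 0.

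The values next to RPL31 at the upper end were those of RPL37A (1.13, SE 0.68) and RPL13 (0.87, SE 0.68). At the lower end stood the stalk base RPLP0 (-0.42, SE 0.42), RPL30 (-0.20, SE 0.47) and RPL27 (-0.11, SE 0.76). RPL37A had 14, 7 and 39 counts under actD and 15, 25 and 5 under DMSO, which shows how few reads stood behind these values. In the same table the members had a median of 4 to 12.5 counts per library. Protein-coding counts made up 2.12% to 19.8% of each library at this time.

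At 72 h, 5 members were called higher in footprints under actD in the main fit, and most other members tested were higher without being called. Of the 46 members, 33 passed the filter on low counts. RPL34 and RPL35 passed through the actD libraries alone, with no DMSO library past the filter, so that a difference was built into their passing. The log2 fold change was above 0 for 32 of these 33, with a median of 1.24 against 0.07 over the 2426 genes tested. Protein-coding genes took 36.1%, 30.7% and 40.4% of the footprint counts in the actD libraries and 27.5%, 38.4% and 17.6% in the DMSO libraries. The part of this in the result was not tested. The edgeR test called 5 members, RPL13, RPL28, RPL34, RPL35 and RPL37A, against 3.79% of all genes called and 1.61% called higher. An unadjusted p below 0.05 was found for 18 members, all higher, or 54.5% of the members tested, against 14.2% of all genes higher and 27.3% in either direction. In 20 of the 33 members tested all actD libraries lay above all DMSO libraries, against 19.5% of all genes, and in none did they lie below, against 16.2%. The 20 were the 5 called members with RPL9, RPL10, RPL13A, RPL14, RPL23, RPL24, RPL27, RPL27A, RPL31, RPL32, RPL35A, RPL36, RPL37, RPLP0 and RPLP2. RPL34 and RPL35 are included in the counts of 5, 18, 20 and 32 given here.

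RPL28, a protein found in the ribosomes of eukaryotes only, had 252, 242 and 573 CPM under actD and 45.2, 70.4 and 49.8 CPM under DMSO. The lowest actD library was more than 3 times the highest DMSO library, and replicate 3 of actD stood above its partners. The counts behind these values were 169, 89 and 482 against 20, 21 and 4. This gave a log2 fold change of 2.68 (SE 0.52, edgeR adjusted p 0.0473).

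RPL37A, a small zinc-binding protein, had 588, 432 and 808 CPM under actD and 90.5, 121 and 87.1 CPM under DMSO. The counts were 394, 159 and 679 against 40, 36 and 7, the largest among the members called. All DMSO libraries were close to each other and well below every actD library. On the log2 scale the difference was 2.60 (SE 0.46, edgeR adjusted p 0.0473).

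RPL13 had 249, 231 and 107.1 CPM under actD and 29.4, 30.2 and 62.2 CPM under DMSO, and its groups did not overlap. Here replicate 3 was the lowest of the actD libraries and the highest of the DMSO libraries. Its log2 fold change was 2.42 (SE 0.51, edgeR adjusted p 0.0473).

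RPL34 and RPL35 were almost without counts under DMSO. RPL34 had 26, 16 and 105 counts under actD and 3, 0 and 0 under DMSO, a ratio of 21.4 between depth-scaled sums with a 95% counting interval of 7.19 to 105. RPL35 had 29, 11 and 33 counts under actD and was listed at 0 in all DMSO libraries. Against a floor of 3 counts per DMSO library its level was at least 2.08-fold higher. The edgeR adjusted p was 0.0479 for RPL34 and 0.0454 for RPL35. RPL35 was also listed at 0 in 5 of 6 footprint libraries at 6 h, where RPL34 had 2 to 17 counts in each library.

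The call depended on the settings. The adjusted p-values of the 5 members lay between 0.0454 and 0.0479. None was called when library totals replaced TMM, with a looser filter on low counts, or without replicate 1 or 2 of either group. Without replicate 3 of DMSO, the shallow library, 1 member was called and 29 of 35 members tested were higher, and without replicate 3 of actD 8 were called. DESeq2 called 9, a fit on protein-coding genes alone 12, and a fit with the replicate number as a block 0.

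No test compared the parts of the subunit, and their members are given side by side. Of the stalk, RPLP2 had 839, 664 and 714 CPM under actD and 190, 235 and 124 CPM under DMSO, with all actD libraries far above DMSO (log2 fold change 1.99, SE 0.45, adjusted p 0.0516). RPLP0 had 127, 122 and 105 CPM against 79.2, 80.5 and 49.8 CPM, also without overlap (0.70, SE 0.34, adjusted p 0.221). RPLP1 had 19, 7 and 7 counts against 5, 2 and 1 and did not pass the filter.

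Of the catalytic centre, RPL3 had 382, 465 and 1100 CPM under actD and 466, 939 and 261 CPM under DMSO, and the groups overlapped widely (log2 fold change 0.22, SE 0.64, adjusted p 0.849). RPL10 had 40.3, 59.8 and 89.2 CPM against 24.9, 30.2 and 24.9 CPM without overlap (1.23, SE 0.41, adjusted p 0.111). RPL5, of the 5S particle, had 329, 337 and 351 CPM against 364, 295 and 74.6 CPM, so that the actD libraries lay within the DMSO range (0.43, SE 0.56, adjusted p 0.646). The lowest values were those of RPL6 (-0.13, SE 0.62), RPL4 (0.05, SE 0.51) and RPL19 (0.05, SE 0.58), and each of these signs changed when 1 library was left out.

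**Figure D3:**
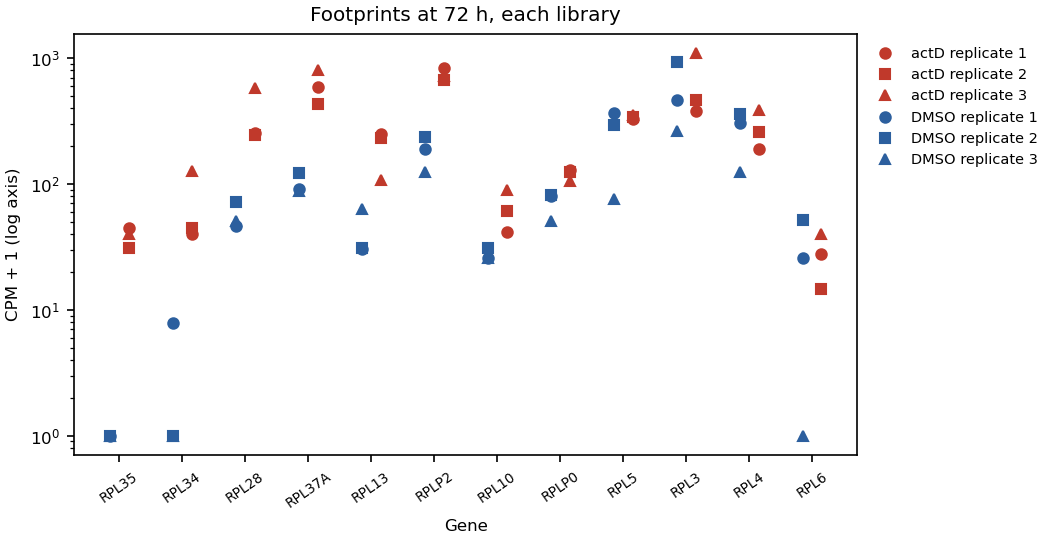
Footprint level of 12 large-subunit genes at 72 h in each library, as CPM plus 1 on a log axis, with actD in red, DMSO in blue and the marker showing the replicate number. RPL35, RPL34, RPL28, RPL37A, RPL13 and RPLP2 have all actD libraries above all DMSO libraries, while RPL5, RPL3, RPL4 and RPL6 overlap.

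The 13 members that did not pass the filter were RPL7, RPL11, RPL12, RPL17, RPL21, RPL22, RPL22L1, RPL26, RPL29, RPL38, RPL39, RPL41 and RPLP1. RPL41, which at 25 codons encodes the shortest protein of the set, had 14, 5 and 22 counts under actD and 1, 0 and 0 under DMSO, a ratio of 17.9 with a counting interval of 3.04 to 725. RPL39, a tunnel protein, had 9, 6 and 25 counts against 1, 2 and 1. RPL22 had 8, 5 and 19 counts against 4, 4 and 0. RPL26 had 4, 1 and 4 counts against 0, 2 and 0. RPL11 and RPL22L1 were listed at 0 in all 18 footprint libraries of the series, although RPL11 had 19028 to 66873 counts in the RNA libraries and RPL22L1 had 685 to 11844. In all, 27 of 46 members had a count in each of the 18 footprint libraries and 17 were at 0 in some of them. What produced these zeros was not tested.

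The difference in footprints at 72 h went with the length of the coding sequence, in the members and in other genes alike. Spearman's rho between log2 fold change and coding length was -0.74 over 33 members and -0.57 over 2192 other protein-coding genes, given as a description across genes measured in the same 6 libraries. The relation was not particular to this comparison. In members and other genes rho was -0.40 and -0.32 in footprints at 6 h and -0.37 and -0.50 in those at 2 weeks. In RNA at 72 h it was -0.46 and -0.23. Among members with a coding length up to 450 nt, 15 of 15 were higher, with a median of 1.93. RPL34 and RPL35, which passed the filter through the actD libraries alone, are among these 15. Among 18 longer members the median was 0.71 and 17 were higher. Among other coding genes outside the lists the medians were 0.78 for 150 short genes and -0.04 for 2007 longer ones. Within each length class the median of the members was above that of the other genes at 72 h. In footprints at 2 weeks the median of short members was 0.02 against 0.43 for other short genes, and for longer genes it was 0.04 against -0.02. The part of coding length in the difference between members and other genes was not tested.

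**Figure D4:**
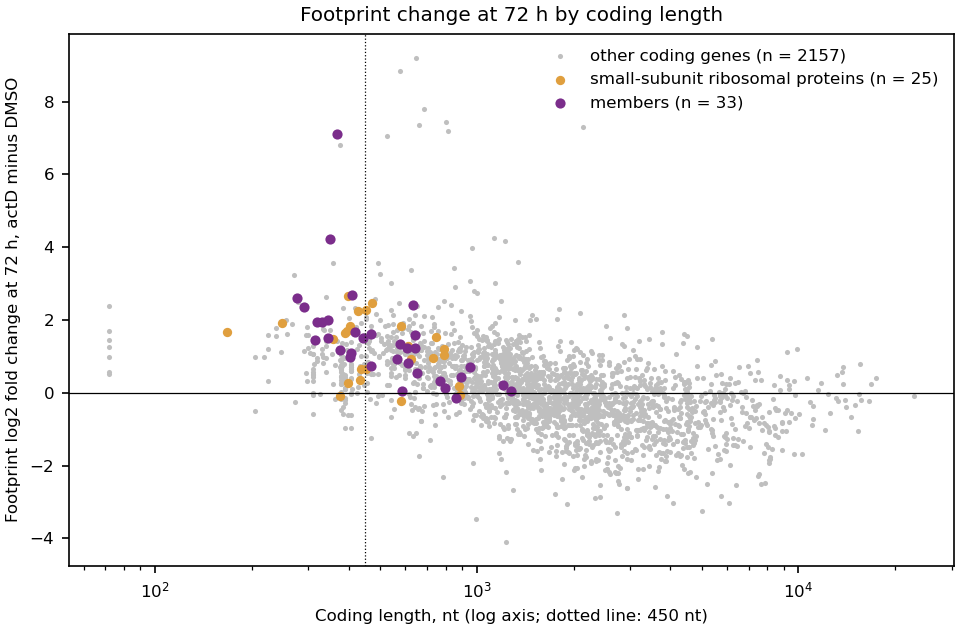
Footprint log2 fold change at 72 h (actD minus DMSO) against coding length in nt on a log axis, for members, small-subunit ribosomal proteins and other coding genes. Short genes lie higher in all 3 sets, with a median of 1.93 for the 15 members up to 450 nt and 0.71 for the 18 longer ones.

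The small subunit stood close to the large one in footprints at 72 h. Of its 33 genes, 25 were tested and 22 were higher, with a median of 1.30. RPS24 had the largest value of that list (2.65, SE 1.44, adjusted p 0.263 by edgeR). Of 13 mitochondrial large-subunit proteins tested, 12 were higher, with a median of 0.98. Other TOP messenger RNAs had a median of -0.47, with 4 of 10 higher, among them EEF1A1 (1.59, SE 1.41) and EEF1B2 (1.31, SE 0.51), both subunits of elongation factor 1. Of 10 assembly factors, 8 were lower (median -0.37), with NOP2, which methylates large-subunit ribosomal RNA, at -1.63 (SE 0.48, adjusted p 0.0861). No test compared these lists with the members.

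Translational efficiency at 72 h was higher under actD in all 33 members tested. The median log2 difference was 1.53 against 0.03 over the 2311 genes tested. The edgeR interaction test called 2 members, RPL28 and RPL35, the latter having passed the filter through actD alone, against 0.433% of all genes (10 genes) and 0.389% higher. An unadjusted p below 0.05 was found for 18 members, against 14.9% of all genes and 9.17% in the higher direction. RPL34 and RPL35, which passed the footprint filter through the actD libraries alone, are included in the counts of 33 and 18. RPL28 had a log2 difference in efficiency of 2.77 (SE 0.51, adjusted p 0.0383). That call was lost in 11 of 20 alternatives, among them each of the 6 that left out an RNA library, where the adjusted p was up to 0.124. RPL35, which had no DMSO footprints, had an adjusted p of 0.008, and its fitted size is no measure of the change because of those zeros. Its RNA was at 316 to 393 CPM in all libraries of that time.

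RPL13 (2.82, SE 0.66, adjusted p 0.0872) and RPL37A (2.65, SE 0.63, adjusted p 0.089), both called in footprints, were not called in efficiency. For RPL34, with 3, 0 and 0 DMSO footprint counts, the fitted size is likewise no measure (adjusted p 0.1). In RPL3 the difference in efficiency was 1.49 (SE 0.69, adjusted p 0.337), with 0.22 in footprints and -1.41 in RNA. In RPL5 it was 1.17 (SE 0.68, adjusted p 0.443), with 0.43 in footprints and -0.87 in RNA. RPLP2 stood at 1.72 (SE 0.47, adjusted p 0.127), RPL10 at 2.03 (SE 0.75) and RPLP0 at 0.67 (SE 0.45).

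The lowest efficiency differences were those of RPL6 (0.04, SE 0.78), RPL19 (0.43, SE 0.71) and RPL7A (0.43, SE 0.48). By role, the median was 1.85 over 15 proteins placed in no particular site, 1.625 over 3 of the subunit interface and 1.49 over 3 of the catalytic centre. It was 1.25 over 4 that only eukaryotes have, 1.20 over 2 of the stalk and 0.93 over 5 of the exit tunnel. RPL34 is among the 15 in no particular site and RPL35 among the 5 of the exit tunnel. Of the 5S particle 1 protein was tested, RPL5, at 1.17. Without replicate 3 of DMSO in both assays, 31 of 35 members tested were higher and 1 was called. The number of members called ran from 0 to 9 over all settings. In the small subunit 23 of 25 genes were higher with a median of 1.51, and none was called.

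At 6 h efficiency was above 0 in 14 of 18 members, with a median of 0.30 against -0.03 over 951 genes. With library totals it was above 0 in 4 of 18, and the median over all genes moved to -0.75. The interaction test called no member and 0% of all genes, and no member had an unadjusted p below 0.05 (5.26% of all genes). The ends of the range were RPL31 (1.05, SE 0.54), RPL37A (0.93, SE 0.60) and RPL13 (0.77, SE 0.62) above, and RPLP0 (-0.52, SE 0.42), RPL30 (-0.32, SE 0.41) and RPL27 (-0.26, SE 0.71) below.

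**Figure D5:**
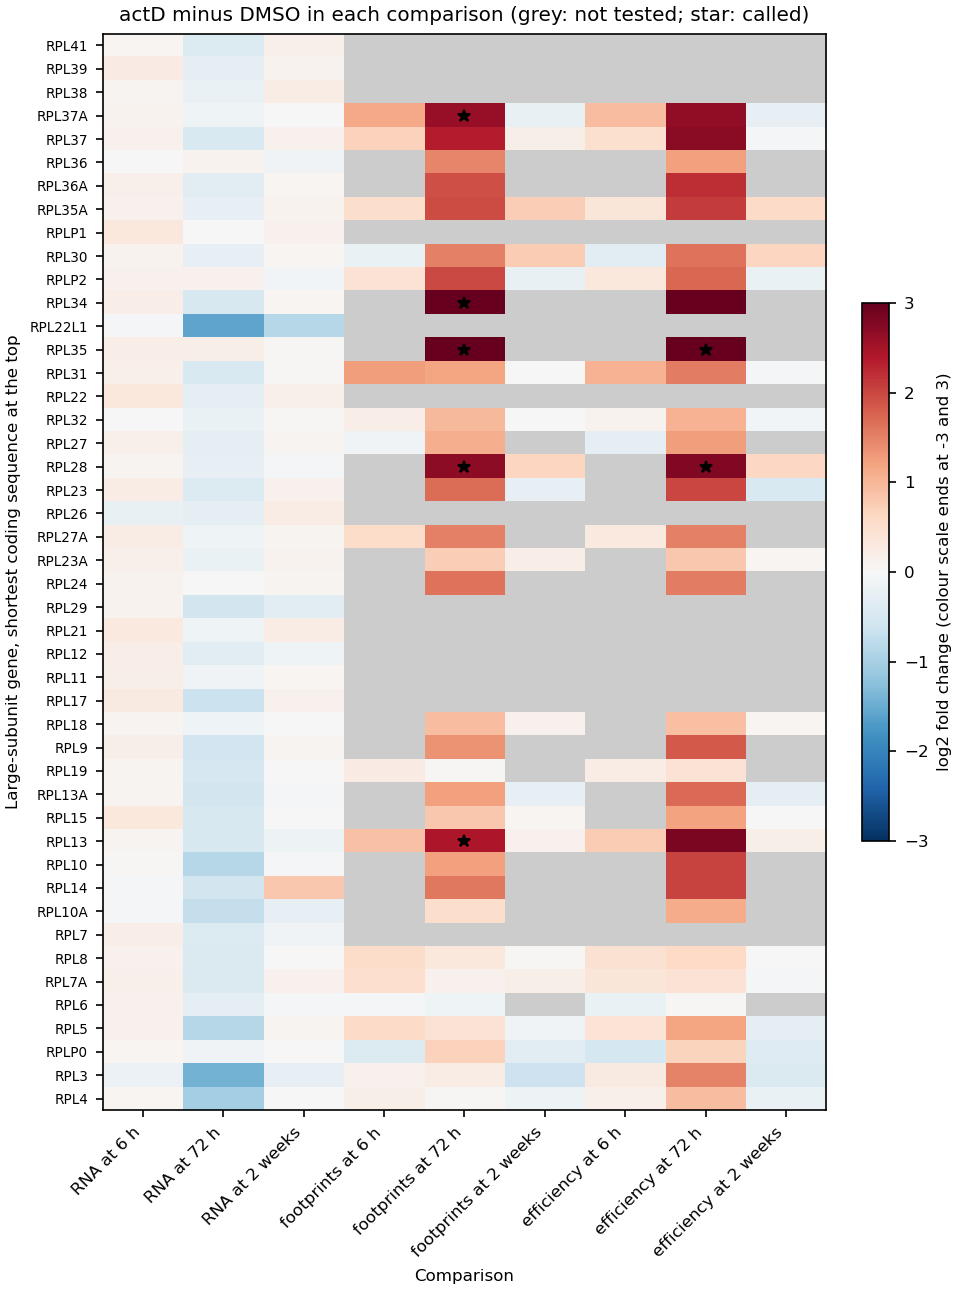
Log2 fold change (actD minus DMSO, colour) of each large-subunit gene in RNA, footprints and translational efficiency at 6 h, 72 h and 2 weeks, with genes ordered by coding length, grey for genes that did not pass the filter and stars for calls. Footprints and efficiency at 72 h are red for nearly all members tested, most strongly in the shorter genes, and RNA at 72 h is pale blue for 42 of 46 members; RNA at 2 weeks is by library name.

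At 2 weeks, after both cycles of the schedule, the footprints of the members lay on both sides of DMSO. Of 20 members tested, 12 had a log2 fold change above 0 (7 with library totals), with a median of 0.03 against 0.02 over 1598 genes. No member was called by edgeR, as was 0% of all genes, and DESeq2 called none. Among these 20, RPL30 was the 1 member with an unadjusted p below 0.05 (8.57% of all genes) and the 1 whose actD libraries all lay above DMSO (8.32%), while none lay below (6.57%). Of 24 members tested without replicate 3 of DMSO, 15 were above 0, and the median of the members was 0.24 above that of all genes instead of 0.01. RPL30 had 14.8, 25.1 and 20.4 CPM against 12.4, 9.90 and 13.6 CPM (0.77, SE 0.30, adjusted p 0.562).

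RPL35A (0.74, SE 0.38) and RPL28 (0.64, SE 0.34) came next. RPL28 had 13.7, 26.2 and 18.95 CPM under actD and 10.8, 10.8 and 16.6 CPM under DMSO, with overlap. RPL37A had 25.1, 29.6 and 21.9 CPM against 51.1, 22.5 and 16.6 CPM, so its actD libraries lay within the DMSO range. At the lower end stood RPL3 (-0.62, SE 0.45), RPLP0 (-0.34, SE 0.30) and RPL13A (-0.25, SE 0.45). RPL35, untested here, had 6, 8 and 8 counts under actD and 11, 8 and 0 under DMSO.

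Efficiency at 2 weeks, which uses the RNA libraries by name, was above 0 in 7 of 20 members (10 with library totals, 11 by the titles, and 14 of 24 without replicate 3 of the DMSO footprints), with a median of -0.05 against -0.02 over 1441 genes. No member was called, as was 0% of all genes, and none had an unadjusted p below 0.05 (5.14% of all genes). The ends were RPL30 (0.65, SE 0.33), RPL28 (0.62, SE 0.37) and RPL35A (0.57, SE 0.38) above, and RPL23 (-0.45, SE 0.38), RPL3 (-0.43, SE 0.45) and RPLP0 (-0.39, SE 0.40) below.

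Whether the effect of actD differed between times was tested as an interaction on joined tables. In RNA, the effect at 72 h minus that at 6 h was below 0 for 45 of 46 members, with a median of -0.52 against -0.03 over 24251 genes. This test called no member, against 0.0165% of all genes, and 7 had an unadjusted p below 0.05, all lower, or 15.2%, against 5.18% of all genes lower and 8.02% in either direction. RPL22L1 (-1.58, SE 0.71), RPL3 (-1.26, SE 0.26, adjusted p 0.233) and RPL4 (-1.10, SE 0.36) were lowest. Without replicate 3 of DMSO at 72 h, 37 of 46 members were below 0, the difference in median from all genes went from -0.49 to -0.19, and RPL22L1 stood at -0.38. RPL36 (0.06, SE 0.28), RPLP2 (-0.03, SE 0.34) and RPL35 (-0.03, SE 0.27) were highest.

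In footprints, the effect at 72 h minus that at 6 h was above 0 for 25 of 33 members, with a median of 0.92 against 0.22 over 3012 genes, a median that was 0.80 with library totals. Over the other settings, in which the number tested also varied, 23 to 41 members were above 0. No member was called by edgeR, as was 0% of all genes, DESeq2 called 1, and 8 members had an unadjusted p below 0.05, all higher, or 24.2%, against 4.52% of all genes higher and 6.54% in either direction. On simulated data this edgeR test called 1.14% of genes changed by 2 on the log2 scale, so the absence of calls says little. RPL35, RPL34 and RPL9 (3.47, SE 1.22) were highest, each with an adjusted p of 0.733. RPL34 and RPL35, which passed the filter at 72 h through actD alone, are among the 33, and their fitted sizes are no measure. RPL36A, RPL23A (-0.59, SE 1.74) and RPL7A (-0.26, SE 0.55) were lowest, and RPL36A was at 0 in all DMSO libraries at 6 h.

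The effect on footprints at 2 weeks minus that at 72 h was below 0 for all 37 members tested, with a median of -1.33 against -0.12 over 3760 genes. It called none of them, against 0.0532% of all genes, and 16 had an unadjusted p below 0.05, all lower, against 4.52% of all genes lower and 7.5% in either direction. RPL37A had an interaction of -2.94 (SE 0.63, edgeR adjusted p 0.23). RPL34 (adjusted p 0.328) and RPL35 (adjusted p 0.34) passed the filter at 72 h through actD alone, so their fitted sizes are no measure. Both are included in the counts of 37 and 16. RPL7A (-0.08, SE 0.61), RPL10A (-0.18, SE 0.86) and RPL14 (-0.29, SE 1.10) were nearest to 0. Of 42 members tested without replicate 3 of DMSO at 2 weeks, 38 were below 0. These interactions share the 72 h libraries with the comparison above and are not a second measurement of it.

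Some features of the genes are given beside the values, and their part in the values was not tested. GENCODE names 713 pseudogenes, most of them processed copies, of the members in the RNA tables and the footprint tables list none of them. In RNA these pseudogenes held 6.11% to 6.94% of the counts of members and pseudogenes together at 6 h and 2 weeks and 12.1% to 12.9% at 72 h, and up to 71.4% for RPL21 at 72 h. Small nucleolar RNA genes lie on exonic sequence of 15 members, and the 12 of these tested in footprints at 72 h had a median log2 fold change of 1.10, against 1.46 for the other 21. The other 21 include RPL34 and RPL35, which passed the filter through the actD libraries alone. RPL28, at chr19:55385345-55403250 on the plus strand in GENCODE (hg38), has no named copy. RPL37A, at chr2:216498189-216579180 on the plus strand, has 2.

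Per kb of all annotated exonic sequence, RPL19 had the highest RNA level of the members under DMSO at 6 h (910 CPM per kb, SD 161, n = 3), followed by RPL7A (561, SD 70.4). The lowest were RPL22L1 (12.3, SD 0.462) and RPL28 (37.2, SD 2.74). In footprints at 72 h, per kb of coding sequence, RPLP2 (530, SD 161) and RPL31 (530, SD 201) were highest under DMSO and did not differ beyond their spread. Under actD, RPL37 was at 2551 CPM per kb (SD 1057), RPL37A at 2208 (SD 683) and RPLP2 at 2141 (SD 262).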

How the data were processed

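RNA and ribosome footprints were sequenced from WiT49 cells. The labels' protocols give 2 RNA extraction kits and stranded total RNA libraries. The submitters' processing notes name HISAT2, StringTie and hg38, without roles or versions. The deposited tables hold estimated counts per gene, here whole numbers used as deposited. In the RNA tables at 6 h and 2 weeks the value 3 was more frequent than 2, so a value there may not equal 1 read. Gene symbols came from GENCODE, and 99.36% to 99.42% of gene identifiers matched without version.

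Each table was fitted alone with edgeR 4.0.16 in R 4.3.3 (quasi-likelihood, TMM scaling, filterByExpr, Benjamini-Hochberg over all genes tested, called at an adjusted p below 0.05). Efficiency and time effects were interaction terms, the former with scaling within each assay. DESeq2 1.42.0, library totals, other filters, added copies, replicate blocks and left-out libraries were alternatives. On simulated data the footprint test at 72 h called 64.5% of genes changed by 2 on the log2 scale and 100% of those changed by 4. The footprint interaction of 72 h against 6 h called 1.14% and 33% of such genes. Zeros were set against a floor of 3 counts. Intervals and floors cover counting error only. An exact permutation test of 3 against 3 libraries cannot go below p = 0.1 and was not used. No 2 libraries of the same assay, time and treatment were alike within sampling noise, and other pairs were not compared.

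Named were 13 members on a fixed list, any member called, the 3 highest and 3 lowest of each comparison, and up to 4 genes of each other list. The fixed list included RPL28 and RPL37A, both called in footprints at 72 h. The members and lists were chosen with earlier results of these data known. Some results for other genes are not reported here. Samples were grouped by the labels, and for RNA at 2 weeks by library name.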

Additional observations from a re-analysis of the deposited data

Results flagged for a closer look

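RPL14 lay on opposite sides of the control at different times in RNA. The ratio of mean CPM was 1.76 at 2 weeks, libraries named actd over those named dmso, where all of the former lay above the latter. At 72 h the ratio of actD to DMSO was 0.684, with all actD libraries below DMSO. The difference between the times was not tested, and by the titles of the 2-week libraries the sign at 2 weeks is the opposite.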

How the results depend on the processing

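Direction and call were compared with those of other settings. With DESeq2 the number of members called was 9 in footprints at 72 h, 9 in efficiency at 72 h, 2 in RNA at 2 weeks, and 1 each in RNA at 72 h and in the 3 time comparisons. One fit over all 18 RNA libraries called 4 at 72 h. In footprints at 72 h library totals and a looser filter called 0 and protein-coding genes alone 12, and left-out libraries gave 0 to 8. In efficiency at 72 h library totals and a looser filter called 1, leaving out DMSO replicate 3 of both assays (chosen after seeing the data) 1, and left-out libraries gave 1 to 3. Over all genes, 92 were called in footprints at 72 h, against 5 with library totals, 182 among protein-coding genes, and 0 with a looser filter; in RNA at 72 h 1 was called, against 608 with DESeq2 and 1212 in the fit over 18 libraries.

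The replicate numbers were not taken to pair the libraries, since no comparison had every correlation above 0.1 in all the pairs of groups it uses. Between RNA and footprints all were above 0.1 for actD at 72 h and for DMSO at 2 weeks (named dmso in RNA; 0.143, 0.123 and 0.135), but not for the other treatment at either time. At 72 h they were 0.194, 0.219 and 0.443 for actD and 0.165, 0.0926 and 0.210 for DMSO. Between actD and DMSO footprints at 6 h the correlations were -0.722, -0.0328 and -0.749, and what produced these negative values was not tested. With the number as a block, 0 members were called in footprints and 0 in efficiency at 72 h, and the log2 values that changed sign were those of RPL27 in footprints at 6 h (0.11), RPL6 in efficiency at 72 h (-0.19), RPLP2 in the RNA time comparison (0.047) and RPL10A in footprints at 2 weeks against 72 h (0.14).

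Other signs changed as follows. By the titles, RNA at 2 weeks gave RPL22L1 0.86, RPL29 0.35, RPL3 0.25, RPL38 -0.22, RPL26 -0.23 and RPL14 -0.81. Library totals gave RPL4 -0.031 and RPL19 -0.15 in footprints at 72 h, RPLP2 0.008 in the RNA time comparison and RPL7A 0.17 in footprints at 72 h against 6 h (0.025 with a looser filter). Protein-coding genes alone gave RPLP2 0.068 and RPL35 0.051 in the RNA time comparison. In efficiency at 72 h RPL6 was -0.014 with scaling over 12 libraries, and without DMSO replicate 3 of both assays RPL6 was -0.73, RPL19 -0.036 and RPL7A -0.10. Leaving out 1 library at a time gave these log2 ranges for members whose sign changed. RNA at 6 h gave RPL26 -0.451 to 0.016 and RPL10A -0.189 to 0.027, and RNA at 72 h gave RPL36 -0.016 to 0.219. Footprints at 6 h gave RPL30 -0.562 to 0.1 and RPL27 -0.55 to 0.224, those at 72 h RPL6 -0.448 to 0.479, RPL4 -0.225 to 0.326 and RPL19 -0.374 to 0.945, and those at 2 weeks RPL13A -0.641 to 0.305. Efficiency gave RPL27 -0.688 to 0.122 at 6 h, RPL6 -0.421 to 0.677 and RPL19 -0.018 to 1.361 at 72 h, and RPL3 -0.709 to 0.033 at 2 weeks. The RNA time comparison gave RPLP2 -0.197 to 0.3, RPL36 -0.035 to 0.234 and RPL35 -0.149 to 0.173. Footprints at 72 h against 6 h gave RPL36A -4.631 to 0.41, RPL23A -1.56 to 0.165 and RPL7A -0.535 to 0.072, and those at 2 weeks against 72 h RPL14 -0.775 to 1.816, RPL10A -0.626 to 0.447 and RPL7A -0.323 to 0.508. The cause was not tested. Depth limits the footprint values, since many members had under 20 counts in a library. Added copies could not be run on footprints alone, whose tables list none.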
